A study of Mus musculus with 7 samples.

Results

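The 9 genes described here were chosen by name for what they do. They are the sodium channels, chloride channels, pump, cotransporter and water channels that move salt and water across the lining of the air spaces. They were taken by symbol from the 55401 genes of the deposited count table, and 9 of 9 were found, each in 1 row. Scnn1a, Scnn1b and Scnn1g encode the α, β and γ subunits of ENaC, the epithelial sodium channel. Atp1b1 encodes the β1 subunit of the Na,K-ATPase. Cftr and Ano1 encode chloride channels and Slc12a2 encodes NKCC1, a sodium, potassium and chloride cotransporter. Aqp1 and Aqp5 encode water channels.

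The air spaces are kept nearly dry by active sodium transport. Sodium enters epithelial cells from the air side through ENaC and leaves them on the blood side through the Na,K-ATPase, and water follows the salt. Chloride moves through CFTR and other channels, in either direction according to the gradient, and NKCC1 loads chloride into cells that secrete it. AQP5 is known from the apical membrane of alveolar type I (AT1) cells and AQP1 from the endothelium of lung vessels.

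The samples were right lung lobes of male C57BL/6 mice aged 6 to 8 weeks, all given a single intratracheal dose of bleomycin, a cytotoxic antibiotic that injures and scars the lung. The 4 BLM mice had bleomycin alone, and the 3 BLM+HBO mice also breathed hyperbaric oxygen (HBO, oxygen under pressure in a chamber) at 2.5 ATA for 90 min per day on 14 consecutive days from day 7. All lungs were collected on day 21. Whether the BLM mice sat in the unpressurised chamber or were left untreated differs between the sources and was not settled, no group without bleomycin was compared here, and the study left out mice that lost too little weight.

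Reads were counted without regard to strand, and the totals ran from 18157161 to 26365969 per mouse. All 9 genes passed the filter on low counts, as did 17465 genes in all. Levels are given as CPM, counts scaled to a common library size with factors from the trimmed mean of M values, and comparisons between genes as CPM per kb of exon. The first principal component held 37.3% of the variance and put BLM+HBO 2 at -0.996, nearer to the BLM mice (-47.6 to -6.08) than were BLM+HBO 1 (54.8) and BLM+HBO 3 (37.8). On this component BLM+HBO 2 stood apart from its group, and BLM 1 (-47.6) also lay far from BLM 3 (-6.62) and BLM 4 (-6.08). A chi-square per gene between pairs of libraries was 13 for BLM+HBO 2 with BLM 4 and 19 with BLM 3. The lowest value within a group was 22.1, so BLM+HBO 2 was nearer to those BLM mice than any same-group pair. For the 9 genes, all genes and related transport genes, the count past the thresholds given below is also stated without BLM+HBO 2. Each library came from 1 mouse, and P values measure the spread among these 7 mice.

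The water channels and the sodium channel were among the most abundant genes tested, and the chloride channel Cftr was among the less abundant. Aqp1 had a mean of 329 CPM per kb over the 7 mice (284 to 364), a level above that of 99.5% of the tested genes, and its range did not overlap with that of any other of the 9 genes. Aqp5 followed at 184 (131 to 233) and Scnn1a at 137 (98.9 to 167), and these neighbours overlapped, with Aqp5 above Scnn1a in 5 of 7 mice. Atp1b1 had 111 (88.0 to 141) and was below Scnn1a in 5 of 7 mice. Scnn1g had 80.7 (58.2 to 96.9) and Scnn1b 49.8 (38.3 to 65.8), and the order of Atp1b1, Scnn1g and Scnn1b was the same in 7 of 7 mice although neighbouring ranges overlapped. The order within ENaC was thus α, γ and then β.

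The 3 genes of chloride transport were lower than all sodium and water genes on this scale. Ano1 had 17.5 (14.4 to 21.2) CPM per kb and Slc12a2 13.9 (12.01 to 15.4), with Ano1 the higher in 6 of 7 mice. Cftr had 0.799 (0.475 to 1.501), a level above that of 16.8% of the tested genes, and Slc12a2 was 17.3-fold above it. Cftr rested on 66 to 281 reads per mouse, whereas the other 8 genes had at least 1716 reads in every mouse.

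The comparison of BLM+HBO with BLM asked whether repeated hyperbaric oxygen went along with a different level of these transport genes at day 21. It was tested with edgeR's quasi-likelihood test over all genes, with the thresholds of the study, an unadjusted P below 0.05 and a fold change above 1.5. These thresholds called 6.29% of the tested genes in either direction, 3.40% higher and 2.89% lower in BLM+HBO. At a Benjamini-Hochberg adjusted P below 0.05 edgeR called 0 genes (0%), with 1861 genes (10.7%) at an unadjusted P below 0.05, while DESeq2 called 128 genes at its own adjusted P below 0.05. None of the 9 genes was among those 128.

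Of the 9 genes, 1 (Cftr) passed the thresholds, and 2 (Cftr and Scnn1a) had an unadjusted P below 0.05. Without BLM+HBO 2, Cftr alone passed the thresholds and alone had an unadjusted P below 0.05. That mouse had the lowest Cftr of its group, so the fit without it is no independent check. The median log2 fold change of the 9 was 0.01, beside 0.0071 over all tested genes, with 5 genes above 0 and 4 below. The groups did not overlap in 2 genes, Scnn1a and Aqp1, both lower in BLM+HBO, beside 8.77% of all tested genes in either direction and 4.72% lower. In whole lung RNA, fewer cells of a type and less RNA per cell cannot be told apart.

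**Figure D1:**
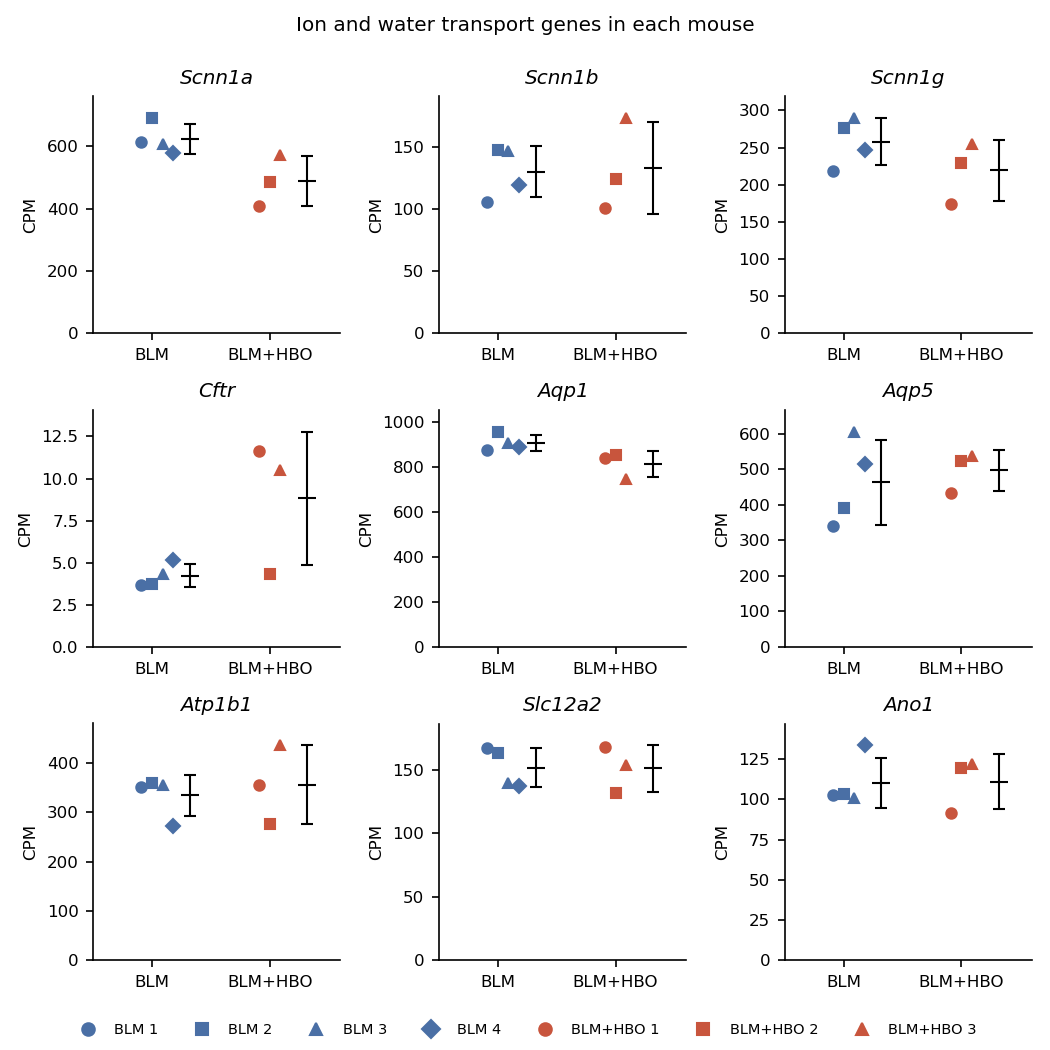
Level of each of the 9 genes in every mouse, in CPM from 0, with 1 point per mouse and the mean ± SD of each group beside the points. Scnn1a and Aqp1 show no overlap between the groups, and in Cftr BLM+HBO 1 and 3 stand above all other mice while BLM+HBO 2 lies among the BLM mice.

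Among the ENaC genes, the α subunit was the one whose groups separated. Scnn1a, whose subunit the channel needs for full activity, is on chromosome 6 at 125320659 to 125344943 (GRCm38, + strand, ENSMUSG00000030340.16). Its levels were 614.97, 690.75, 606.02 and 579.93 CPM in BLM 1 to 4 and 408.51, 486.07 and 570.88 CPM in BLM+HBO 1 to 3. All 3 BLM+HBO mice were below all 4 BLM mice, with BLM+HBO 3 only just below the lowest BLM mouse. The means were 623 ± 47.6 (SD, n = 4) and 488 ± 81.2 CPM (SD, n = 3). The log2 fold change was -0.35 ± 0.14 (SE, edgeR), with a 95% interval of -0.67 to -0.03 and an adjusted P = 0.445. The unadjusted P was below 0.05 but the change was short of the fold threshold, and it ranged from -0.24 without BLM+HBO 1 to -0.48 without BLM+HBO 3. The unadjusted P was below 0.05 in 10 of the 15 alternative fits, and above it under the replicate block and when mouse 1 or 2 of either group was left out.

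Scnn1g and Scnn1b lie next to each other on chromosome 7 in the same direction. Scnn1g (ENSMUSG00000000216.8) spans 121734479 to 121768475 and Scnn1b (ENSMUSG00000030873.9) 121865038 to 121918514, both on the + strand, with 96562 bases and 1 other gene between them. The 250 bases before each start site are shown because the balance of these neighbours is compared next. They are from RefSeq (GRCm38.p6), read 5′ to 3′ in lower case, and hold no match to the motifs described for Cftr.
Scnn1g, chr7:121734229-121734478, + strand: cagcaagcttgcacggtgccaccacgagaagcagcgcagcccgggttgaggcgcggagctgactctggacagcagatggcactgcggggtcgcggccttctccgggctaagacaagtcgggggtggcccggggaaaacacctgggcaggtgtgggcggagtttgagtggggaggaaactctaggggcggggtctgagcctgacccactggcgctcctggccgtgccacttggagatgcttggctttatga
Scnn1b, chr7:121864788-121865037, + strand: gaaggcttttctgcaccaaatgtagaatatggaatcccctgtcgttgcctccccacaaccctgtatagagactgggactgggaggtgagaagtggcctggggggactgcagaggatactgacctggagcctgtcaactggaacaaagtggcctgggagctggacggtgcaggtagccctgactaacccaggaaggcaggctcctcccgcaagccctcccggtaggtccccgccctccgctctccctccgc

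Scnn1g had 218.55, 276.16, 289.78 and 246.58 CPM in BLM 1 to 4 and 174.13, 229.49 and 254.65 CPM in BLM+HBO 1 to 3. BLM+HBO 1 was the lowest of the 7 mice and the groups overlapped. Its log2 fold change was -0.23 ± 0.16 (SE; 95% interval -0.58 to 0.12; edgeR adjusted P = 0.615), moving to -0.0906 when BLM+HBO 1 was left out and to -0.36 when BLM+HBO 3 was. Scnn1b had 106.00, 147.44, 146.87 and 119.63 CPM in BLM 1 to 4 and 100.77, 124.10 and 173.21 CPM in BLM+HBO 1 to 3. The highest and the lowest of the 7 mice were both in BLM+HBO, and the log2 fold change was 0.03 ± 0.19 (SE; -0.40 to 0.46; edgeR adjusted P = 0.969). These intervals leave room for changes of either sign in both genes.

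Ratios within a mouse do not depend on the scaling between libraries, so the balance of the subunits was compared as counts per kb of one over the other. An exact two-sided permutation test over the 35 ways to assign the mice was used for 4 ratios, for which the smallest P is 0.0286. The γ to β ratio was 1.81, 1.65, 1.74 and 1.81 in BLM 1 to 4 and 1.52, 1.63 and 1.29 in BLM+HBO 1 to 3. All BLM+HBO mice were below all BLM mice, with means of 1.75 ± 0.0790 (SD, n = 4) and 1.48 ± 0.170 (SD, n = 3) and a log2 difference of -0.25 (exact permutation P = 0.0286, adjusted over the 4 ratios 0.114). BLM 2 and BLM+HBO 2 were close to each other.

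The β to α ratio was 0.271, 0.335, 0.380 and 0.324 in BLM 1 to 4 and 0.387, 0.401 and 0.476 in BLM+HBO 1 to 3. Again the groups did not overlap, here with BLM+HBO the higher (0.421 ± 0.0479 against 0.327 ± 0.0451, log2 difference 0.37, exact permutation P = 0.0571, adjusted 0.114). The γ to α ratio overlapped between the groups, from 0.491 to 0.661 in BLM and from 0.589 to 0.652 in BLM+HBO (log2 difference 0.12, exact permutation P = 0.4, adjusted 0.4). In these 7 mice the β subunit thus took a larger part beside both other subunits in BLM+HBO. Beside α the margin was narrow, 0.387 in BLM+HBO 1 and 0.380 in BLM 3. With a mouse left out, the β to α log2 difference ranged from 0.28 to 0.44 (exact permutation P = 0.0667 to 0.2). Neither the γ to β nor the β to α difference passed the adjustment, which no single ratio could pass by itself even at the smallest P. The 3 ENaC ratios share genes and are not independent of each other.

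**Figure D2:**
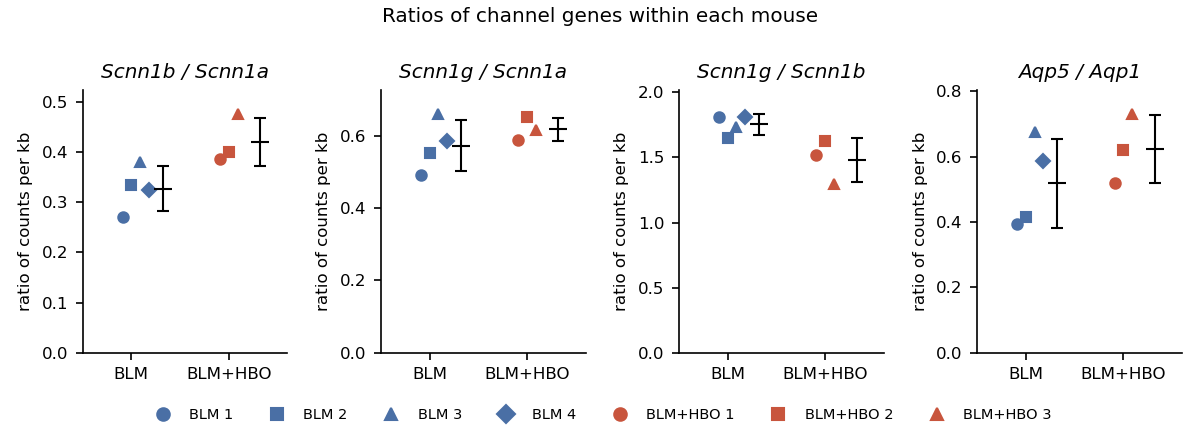
Ratio of counts per kb for 3 pairs of ENaC subunits and for the 2 aquaporins in every mouse, from 0, with the mean ± SD of each group beside the points. The groups separate in the β to α ratio (0.271 to 0.380 against 0.387 to 0.476) and in the γ to β ratio (1.65 to 1.81 against 1.29 to 1.63), and overlap in the other panels.

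The Na,K-ATPase β1 subunit, which carries the pump to the basolateral membrane, showed no difference past the thresholds. Atp1b1 (ENSMUSG00000026576.12) is on chromosome 1 at 164437109 to 164458355, − strand. It had 350.33, 358.56, 355.61 and 271.17 CPM in BLM 1 to 4 and 354.80, 276.73 and 435.85 CPM in BLM+HBO 1 to 3. BLM 4 and BLM+HBO 2 were the lowest and close to each other, BLM+HBO 3 was the highest, and the groups overlapped. The log2 fold change was 0.09 ± 0.17 (SE; 95% interval -0.29 to 0.47; edgeR adjusted P = 0.881). Of its exon bases, 575 (18.66%) are shared with Nme7 on the opposite strand, and reads from there were left out by the counting, so the level is a lower one than the gene's full exons would give.

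Cftr was the one gene of the 9 past the thresholds. It encodes the chloride and bicarbonate channel opened by cyclic AMP, which in the alveolus serves both absorption and secretion of fluid. It lies on chromosome 6 at 18170687 to 18322768 (+ strand, ENSMUSG00000041301.15). Its levels were 3.69, 3.72, 4.34 and 5.16 CPM in BLM 1 to 4 and 11.66, 4.31 and 10.54 CPM in BLM+HBO 1 to 3. BLM+HBO 1 and BLM+HBO 3 were above every BLM mouse, and BLM+HBO 2 was within the BLM range, so the groups overlapped. The means were 4.23 ± 0.690 (SD, n = 4) and 8.83 ± 3.96 CPM (SD, n = 3).

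The log2 fold change of Cftr was 1.06 ± 0.33 (SE, edgeR), with a 95% interval of 0.33 to 1.80, which is 2.09-fold higher in BLM+HBO, with an unadjusted P below 0.05 and an adjusted P = 0.423. It was past the unadjusted thresholds in each of the 15 alternative fits, with log2 fold changes from 0.81 without BLM+HBO 1 to 1.39 without BLM+HBO 2. Adjusted P values ranged from 0.0318 without BLM+HBO 2 to 0.802 without BLM+HBO 1, and DESeq2 gave 0.117. Because BLM+HBO 2 had the lowest Cftr of its group, the value without it is no independent check. The gene shares 129 exon bases (1.66%) with Gm15592 on the opposite strand, and reads from there were left out by the counting. Gm15592 itself had 0 counted reads in every mouse.

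**Figure D3:**
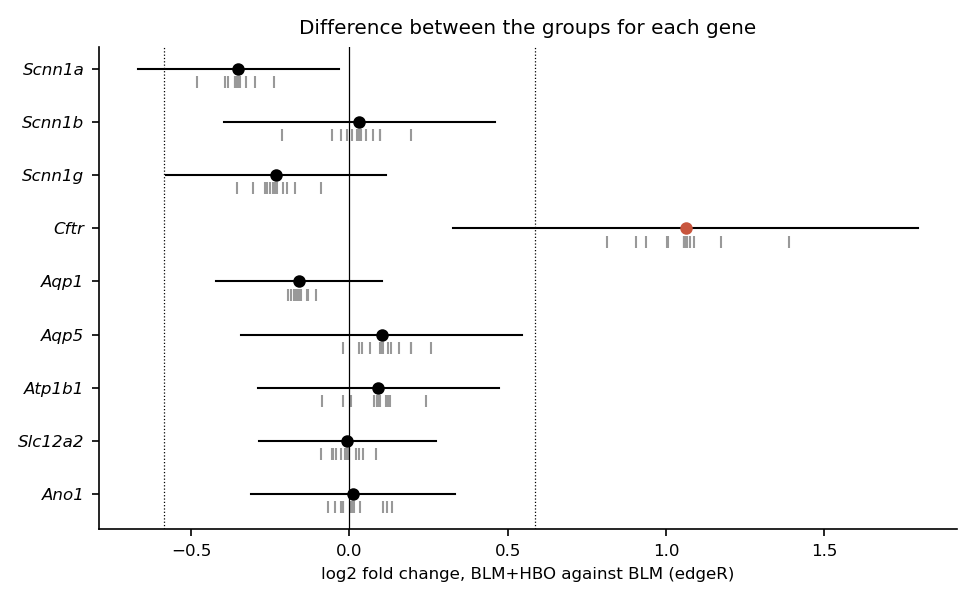
Log2 fold change of each gene in BLM+HBO against BLM (edgeR), with its 95% interval as a line, the 15 alternative fits as grey ticks below it and the fold threshold as dotted lines. Cftr, in red, is past the thresholds at 1.06, the interval of Scnn1a (-0.67 to -0.03) lies below 0 and those of the other 7 genes include 0.

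The summed markers of AT2, club, ciliated and capillary endothelial cells were, like Cftr, above all BLM mice in BLM+HBO 1 and 3 and within the BLM range in BLM+HBO 2. The sum of 10 alveolar type II (AT2) markers, such as the surfactant protein genes, was 25594, 12341 and 29649 CPM in BLM+HBO 1 to 3, beside 9826 to 17841 CPM in BLM. The sum of 7 club cell markers, such as Scgb1a1 and Cyp2f2, was 17336, 10621 and 22513 CPM in BLM+HBO 1 to 3, beside 6348 to 13166 CPM in BLM. The ciliated sum was above the BLM mice by a narrow margin (671, 440 and 654 CPM in BLM+HBO 1 to 3, beside 337 to 651 CPM in BLM), and the capillary endothelial sum was 3912, 2794 and 3781 CPM, beside 2479 to 3347 CPM. Of the first 2 lists 1 of 10 AT2 genes (Sftpa1) and 4 of 7 club genes (Cyp2f2, Cbr2, Scgb1a1 and Aldh1a1) were called higher, and 1 club gene (Bpifb1) was called lower. The same split of the BLM+HBO mice was seen downward in other lists. In the fibroblast, mesothelial, smooth muscle, transitional epithelial and ionocyte sums, BLM+HBO 1 and 3 were below all BLM mice. BLM+HBO 2 was within the BLM range in each of those sums. The split is thus not particular to the lists set beside Cftr, and the part of these cells in the level of Cftr was not tested.

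The transcription factors that define ionocytes, the rare airway cells rich in Cftr, were at or near 0. Foxi1, their defining transcription factor, had 3 reads in BLM 1 and 0 in the other 6 mice, and Ascl3 had 2 to 6 reads. The sum of the 4 ionocyte genes was 64.1 to 92.6 CPM in BLM and 60.6 to 86.9 CPM in BLM+HBO, nearly all of it from Atp6v0d2, which other cells also express, and of the 2 genes that passed the filter 0 were called. Of the ciliated cell markers 1 of 10 (Ccdc39) was called higher. Goblet cell markers summed to 29.3 to 84.1 and 21.2 to 34.5 CPM, with 1 of 5 (Agr2) called lower.

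**Figure D4:**
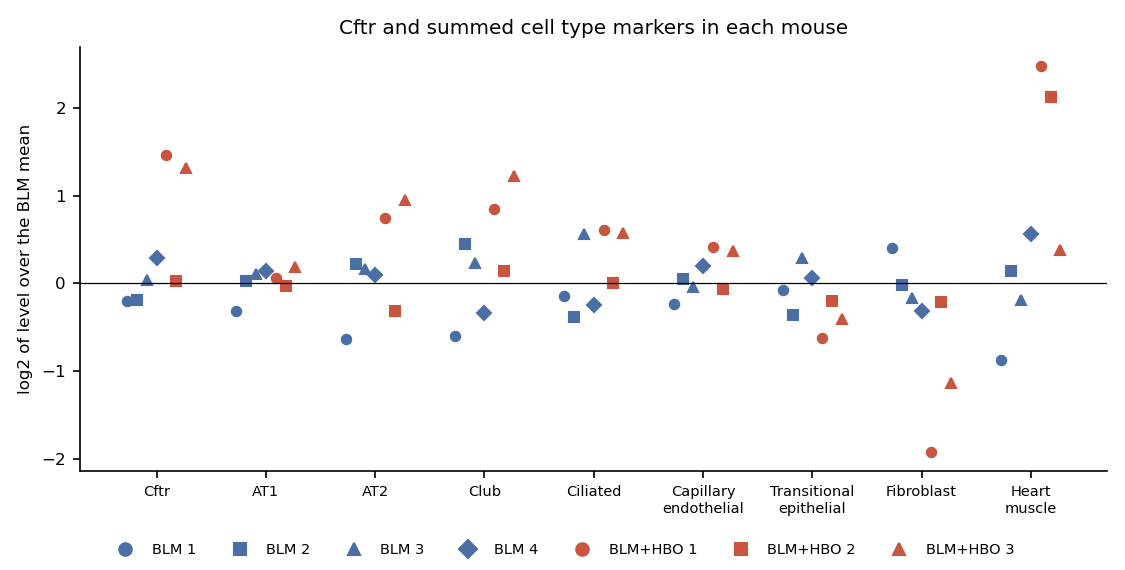
Cftr and the summed CPM of 8 cell type marker lists in every mouse, as log2 of the level over the mean of the BLM mice. For Cftr and for the AT2, club, ciliated and capillary endothelial lists, BLM+HBO 1 and 3 stand above all BLM mice and BLM+HBO 2 lies in the BLM range, and no list separates the groups.

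The start of Cftr was searched for the core letters of the hypoxia response element, since the study concerns oxygen. The 250 bases before the RefSeq start site (GRCm38.p6) are shown in lower case with matches to ACGTG or GCGTG on either strand in capitals.
Cftr, chr6:18170437-18170686, + strand: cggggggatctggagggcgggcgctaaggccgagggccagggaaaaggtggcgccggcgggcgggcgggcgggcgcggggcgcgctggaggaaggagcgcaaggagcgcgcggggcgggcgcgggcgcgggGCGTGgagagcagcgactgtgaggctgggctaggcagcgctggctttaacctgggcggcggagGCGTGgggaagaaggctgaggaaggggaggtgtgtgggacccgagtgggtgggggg
There were 2 matches, at -119 and -56 from the start site. Among 32851 RefSeq promoters of the same length, 38.6% held at least 1 match and 16.7% at least 2, so such matches are common. Of the 7 members with an entry, Aqp5 had 5 matches in 3 stretches, some overlapping or read on both strands, Atp1b1 had 1 at -13, and Scnn1b, Scnn1g, Aqp1 and Ano1 had 0. For Aqp1, Aqp5 and Ano1 the RefSeq start site is not the outer end of the gene in the deposited coordinates. The letters AGAACA, the half-site of the glucocorticoid receptor, were found on either strand in 0 of the 7 and in 16.1% of all promoters. A match of letters is a description and not a bound site.

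The other 2 genes of chloride transport were level between the groups. Ano1, a calcium-activated chloride channel (TMEM16A) that airway epithelium and smooth muscle both carry, is on chromosome 7 at 144588549 to 144751974, − strand (ENSMUSG00000031075.19). It had 102.81, 103.14, 101.02 and 133.74 CPM in BLM 1 to 4 and 91.35, 119.56 and 122.13 CPM in BLM+HBO 1 to 3. BLM 4 was the highest and BLM+HBO 1 the lowest, and the log2 fold change was 0.01 ± 0.14 (SE; 95% interval -0.31 to 0.33; edgeR adjusted P = 0.986). Smooth muscle markers summed to 617 to 927 CPM in BLM and 515 to 753 CPM in BLM+HBO, with 1 of 7 (Acta2) called lower.

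Slc12a2 (ENSMUSG00000024597.11) is on chromosome 18 at 57878678 to 57946821, + strand. It had 166.96, 162.71, 139.67 and 136.90 CPM in BLM 1 to 4 and 167.63, 131.19 and 153.82 CPM in BLM+HBO 1 to 3. The ranges were nearly the same, with means of 152 ± 15.5 (SD, n = 4) and 151 ± 18.4 CPM (SD, n = 3). The log2 fold change was -0.01 ± 0.12 (SE; -0.29 to 0.27; edgeR adjusted P = 0.990), an interval that leaves room for changes of either sign. It lies within the fold threshold on both sides, as do those of Scnn1b, Scnn1g, Atp1b1, Ano1, Aqp1 and Aqp5.

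Of the water channels, Aqp1 separated the groups by a small margin and Aqp5 did not. Aqp1 (ENSMUSG00000004655.5) is on chromosome 6 at 55336432 to 55348555, + strand. It had 872.45, 955.64, 906.01 and 886.59 CPM in BLM 1 to 4 and 837.84, 849.48 and 744.83 CPM in BLM+HBO 1 to 3. All BLM+HBO mice were below all BLM mice, with means of 811 ± 57.4 (SD, n = 3) and 905 ± 36.3 CPM (SD, n = 4). The log2 fold change was -0.16 ± 0.12 (SE; 95% interval -0.42 to 0.10; edgeR adjusted P = 0.647), so the difference did not pass the test. Capillary endothelial markers, from the cells best known for AQP1, had the sums given beside Cftr, higher in BLM+HBO 1 and 3 than in any BLM mouse, and 1 of 10 (Tmem100) was called higher. Erythroid markers, from another cell type that carries AQP1, summed to 1413 to 3540 CPM in BLM and 1851 to 3238 CPM in BLM+HBO, with 0 of 7 called.

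Aqp5 (ENSMUSG00000044217.17) is on chromosome 15 at 99590782 to 99594829, + strand. It had 340.74, 392.38, 606.24 and 514.95 CPM in BLM 1 to 4 and 431.88, 522.78 and 538.14 CPM in BLM+HBO 1 to 3. The BLM mice alone covered the whole range of the BLM+HBO mice, and the log2 fold change was 0.10 ± 0.20 (SE; -0.34 to 0.55; edgeR adjusted P = 0.887). The Aqp5 to Aqp1 ratio was 0.395 to 0.676 in BLM and 0.521 to 0.730 in BLM+HBO (log2 difference 0.29, exact permutation P = 0.286, adjusted 0.381). AT1 markers, such as Ager and Hopx, summed to 6288 to 8590 CPM in BLM and 7660 to 8885 CPM in BLM+HBO, with 0 of 10 called.

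The other cell type lists varied in different ways over the mice. General epithelial markers summed to 2065 to 2968 CPM in BLM and 2308 to 2529 CPM in BLM+HBO (0 of 6 called). Markers of transitional epithelial cells summed to 712 to 1121 and 595 to 797 CPM, with 2 of 6 (Sfn and Cldn4) called lower. Fibroblast markers summed to 5921 to 9751 CPM in BLM and 1957, 6371 and 3371 CPM in BLM+HBO 1 to 3, with 5 of 7 called lower (Col1a1, Col1a2, Col3a1, Dcn and Lum) and 1 higher (Tcf21). Mesothelial markers summed to 422 to 715 and 126 to 488 CPM, with 2 of 5 (Wt1 and Msln) called lower. Heart muscle markers, from muscle of the heart and, in mice, of the pulmonary veins, summed to 71.8 to 194 CPM in BLM and to 730, 575 and 171 CPM in BLM+HBO 1 to 3, with 9 of 10 called higher. The part of these cell types in the levels of the 9 genes was not tested.

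Around the 9 genes, 90 other genes of the same transport systems were counted, of which 76 passed the filter. The thresholds called 5 of the 76 (6.58%, beside 6.29% of all genes), 2 higher and 3 lower in BLM+HBO, and the median log2 fold change was -0.03. None had an edgeR adjusted P below 0.05, and 9 had an unadjusted P below 0.05, 3 higher and 6 lower. With all 7 mice the share called was thus close to the background. Without BLM+HBO 2, 18 of 76 (23.7%, 10 higher and 8 lower) were called, beside 10.7% of all genes in that fit. That mouse was set apart by these same data, so the fit without it is no independent check. Without BLM+HBO 1, 3 of 76 (3.95%) were called, beside 3.7% of all genes. Without BLM+HBO 3, 5 of 76 (6.58%) were called, beside 4.95% of all genes. With upper-quartile factors and all mice 6 were called, 4 higher and 2 lower. With limma-trend and all mice 6 were called, 1 higher and 5 lower, so the split of the calls between higher and lower differed between fits.

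Of the 18 regulators and inputs of ENaC, 0 passed both thresholds. The most abundant per length were Bpifa1 (155 CPM per kb), a secreted airway protein that lowers ENaC activity, and Spint2 (61.4), an inhibitor of the proteases that open the channel. Bpifa1 ranged from 148 to 475 CPM in BLM and from 41.8 to 296 CPM in BLM+HBO. Named after their values were seen, Furin, a protease that cleaves the α and γ subunits, had a log2 fold change of -0.58 ± 0.18 (SE, edgeR adjusted P = 0.423). Nr3c2, the mineralocorticoid receptor, had 0.57 ± 0.22 (SE, edgeR adjusted P = 0.440). Both had an unadjusted P below 0.05 and were just short of the fold threshold. Furin had 293.72, 273.46, 248.05 and 259.21 CPM in BLM 1 to 4 and 125.95, 223.70 and 190.27 CPM in BLM+HBO 1 to 3, with no overlap. Of the 5 regulators of NKCC1, 0 were called, with the kinases Wnk1 (18.4 CPM per kb) and Oxsr1 (14.8) the most abundant.

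Among 12 other Na,K-ATPase genes tested, 1 was called higher and 1 lower. The gene called lower was Fxyd6, a small regulator of the pump. It had 95.70, 101.0, 96.19 and 43.18 CPM in BLM 1 to 4 and 26.88, 59.20 and 39.60 CPM in BLM+HBO 1 to 3, so that BLM 4 lay among the BLM+HBO mice (log2 fold change -1.003 ± 0.33 SE, edgeR adjusted P = 0.423). Atp1b3, another β subunit, had 104 CPM per kb. Fxyd5, named after its values were seen, had an unadjusted P below 0.05 at a log2 fold change of -0.42 (edgeR adjusted P = 0.438).

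In the other lists 3 genes passed the thresholds. Among 24 chloride and anion transport genes 1 was called lower, Clca3a1, a secreted protein of the calcium-activated chloride channel regulator family, at 27.8 to 49.5 CPM in BLM and 14.7 to 37.2 CPM in BLM+HBO (log2 fold change -0.69 ± 0.31 SE, edgeR adjusted P = 0.467). Slc12a4 (27.5 CPM per kb) and Gabrp (14.4) were the most abundant of them. Among 5 other aquaporins tested of 10, 1 was called lower, Aqp3, which passes water and glycerol, at 1.54 to 2.99 CPM in BLM and 0.862 to 1.63 CPM in BLM+HBO (-0.91 ± 0.36 SE, edgeR adjusted P = 0.441). Aqp4 (1.91 CPM per kb) and Aqp3 were the most abundant of those 5 on average, far below Aqp1 and Aqp5. Among 12 potassium and cation transport genes 1 was called higher, Kcne2, a subunit of potassium channels, at 10.1 to 15.5 CPM in BLM and 18.05, 11.82 and 26.32 CPM in BLM+HBO 1 to 3 (0.63 ± 0.26 SE, edgeR adjusted P = 0.454). Kcne2 thus had BLM+HBO 2 within the BLM range, as did Cftr and several of the cell type sums, so this split is not particular to the 2 genes. Slc9a3r2 (105 CPM per kb) and Slc9a3r1 (58.0), scaffold proteins of apical transporters, were the most abundant, the latter with a log2 fold change of -0.24 (edgeR adjusted P = 0.468).

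**Figure D5:**
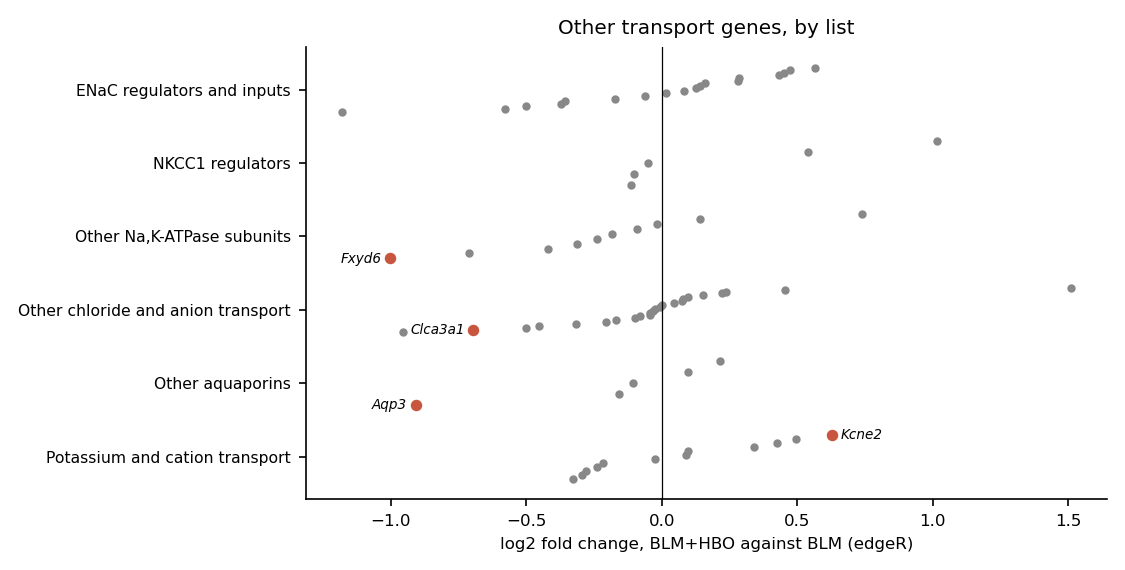
Log2 fold change in BLM+HBO against BLM (edgeR) for 74 tested genes of 6 lists of related transport genes, 1 point per gene, sorted within each list. The 4 genes past the thresholds are red and named, 1 of them to the right of 0 and 3 to the left.

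The genes whose levels followed those of the 9 most closely over the 7 mice were found among all 17465 tested genes by Pearson's r of log2 CPM, as a description. For Scnn1a they were Gm7932 and Mif, for Scnn1b Sphk2 and Osbp, for Scnn1g Pgs1 and Pex5, and for Cftr Hilpda and Gimap1. For Aqp1 they were Cela1 and Dnajc21, for Aqp5 Gm17823 and Tmem59l, for Atp1b1 Zc3h10 and Epop, for Slc12a2 Naaladl2 and 6430511E19Rik, and for Ano1 Atoh8 and Tpp1. None of these was another of the 9 genes. With 7 mice and so many genes, such high values, 0.962 to 0.996, arise readily.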

How the data were processed

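Whole right lung RNA was sequenced from 7 mice. The authors made the libraries with NEBNext Ultra, trimmed paired reads (Trim Galore), aligned them with HISAT2 2.2.0 to the GRCm38 genome and counted them per gene with featureCounts (2.2.0 per the processing notes, with default settings that drop reads shared by genes and ignore strand). The supplementary methods of the paper give another version of featureCounts, a difference that was not settled. The deposited values are raw counts with no normalization, and all columns were assigned to a mouse. The annotation release is not given in the sources used here. Symbols came from GENCODE vM21.

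Genes that passed filterByExpr (at settings of 10 for the minimum count and 15 for the minimum total) were scaled by TMM and tested with the quasi-likelihood test of edgeR 4.0.16 in R 4.3.3. The thresholds were an unadjusted P below 0.05 and a fold change above 1.5, with Benjamini-Hochberg adjusted P beside them. Ratios of counts per kb (0.5 added to each count) were compared on the log2 scale by exact permutation of the mice. DESeq2 1.42.0, limma 3.58.1, other scalings and filters, a replicate block and leaving out each mouse were alternatives, and the test was tested on simulated data.

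The members, the gene lists and the tests were chosen with earlier results of these data known. Text names all 9 members, the genes past the thresholds and the 2 most abundant in each transport list, the 2 genes most like each member, and marker genes where their list is discussed. Protein sequences were not used here. A few genes of the transport lists are counted but not reported here by name or plotted.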

Additional observations from a re-analysis of the deposited data

Results flagged for a closer look

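A sample far from the others of its group was looked for with Dixon's ratio, the gap of the extreme mouse over the range of the group, among the 4 BLM mice. Of 28 measures examined 5 passed its 95% critical value, and chance alone gives about 1 in 20. Atp1b1 was low in BLM 4, at 8.08 log2 CPM beside 8.45 to 8.49 in the other BLM mice (ratio 0.917). Ano1 was high in the same mouse, at 7.06 log2 CPM beside 6.66 to 6.69 (0.926). The summed smooth muscle markers of BLM 4 were low, at 9.27 beside 9.79 to 9.86 on the log2 scale (0.887), and its total count was the highest of the group (0.971). The summed AT2 markers were low in BLM 1, at 13.3 beside 14.0 to 14.1 on the log2 scale (0.859). The group of 3 BLM+HBO mice is too small for this rule.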

How the results depend on the processing

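The count of 1 member past the thresholds was the same under DESeq2, limma-trend, other scalings and filters, robust fitting, the replicate block and without each mouse in turn (1 to 1), and the sign and the unadjusted P below 0.05 of Cftr held in all of them. It was 0 with an adjusted P limit and 2 with no fold limit. Over all genes, 1098 calls became 1940 with no filter on low counts (with 387 at adjusted P below 0.05), 0 with an adjusted P limit, 1861 with no fold limit and 659 to 1914 with a mouse left out, namely 706 when BLM 1 was dropped, 659 when BLM+HBO 1 was, and 1914 when BLM+HBO 2 was (of which 267 had an adjusted P below 0.05). The 5 calls in the transport lists became 9 with no filter, 0 with an adjusted P limit, 9 with no fold limit and 3 to 18 with a mouse left out, namely 3 on dropping BLM 2 or BLM+HBO 1, 8 on dropping BLM 3 and 18 on dropping BLM+HBO 2. The cause was not tested.

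Members near 0 changed sign. Scnn1b went from 0.03 to -0.0276 under the replicate block and ranged from -0.21 to 0.19 with a mouse left out, Atp1b1 went from 0.09 to -0.0203 under the block and ranged from -0.0858 to 0.24 with a mouse left out, Aqp5 from -0.0201 to 0.26, Slc12a2 from -0.0888 to 0.083 and 0.0204 with upper-quartile factors, and Ano1 from -0.0666 to 0.13. The γ to β ratio had a log2 difference of -0.23 under the replicate block (P = 0.25, the smallest that 3 pairs allow in an exact test) and -0.32 to -0.16 with a mouse left out (-0.16 without BLM+HBO 3), where the smallest P is 0.0667 or 0.1. Deviations of same-numbered mice had correlations of -0.00797, -0.066 and 0.161, beside -0.179 to 0.165 for the other pairs. These values gave no sign of pairing by number, but so few mice cannot exclude it. The block gave 1258 calls over all genes and changed no member's call. The 66 to 281 reads of Cftr limit its precision more than those of the other members.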
